A study of Mus musculus with 8 samples.

Results

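Mature B cells were chosen from the pooled cells of erythroblastic island preparations by their RNA: at least 2 UMIs (unique molecules counted) of Cd79a, at least 1 of Ms4a1, at least 2 of Ighd and H2-Aa together, no Vpreb1, Igll1 or Siglech, and at most 5 of Mzb1. The rule found 465 of 24942 cells, 1.86% (95% exact Clopper-Pearson interval 1.70 to 2.04, which covers counting error alone). The study took cells of erythroblastic islands, in which red cell precursors mature around a central macrophage, from the bone marrow and spleen of male Sle1.Yaa mice, a lupus-prone strain, and sequenced them singly on the 10x Genomics V3.1 platform. The 8 libraries fall in 4 groups: 2 marrow and 2 spleen libraries of mice with a human TLR8 transgene, labelled anemic, and 3 marrow libraries and 1 spleen library of Sle1.Yaa control mice without it, labelled non-anemic. All groups therefore share the Sle1 and Yaa alleles, the male sex and the island isolation. The sources used here give neither the age of the mice nor the promoter of the transgene. The counts do not tell island members from B cells carried along in the isolation.

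The columns of the table carry cell barcodes only, so no cell could be tied to a library, tissue or genotype and no group was compared. Barcode order restarts 7 times, and the 8 sorted stretches are used here as unnamed libraries to show spread. They held 447 to 6787 cells and 6195876 to 48442321 UMIs. Levels are gene counts per 1000000 UMIs of a class (CPM). Each is given pooled, with a 95% exact Poisson interval for counting error, and as the lowest, median and highest of the 7 stretches with at least 20 mature B cells. Values carry no test, since a pooled table is 1 sample. In all, 287 barcodes occurred in more than 1 column, and 4 mature B columns carried such a barcode.

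A mature B cell has finished rearranging its immunoglobulin genes and carries the product on its surface as the B cell receptor, an antibody held with the signalling chains Cd79a and Cd79b. It takes up what the receptor binds, shows pieces of it to helper T cells on MHC class II, and depends on the survival factor BAFF. In blood and spleen most such cells are follicular B cells that circulate, while marginal zone B cells stay in the spleen. In Sle1.Yaa mice, Sle1 is a susceptibility locus with genes of the SLAM and Fc receptor families, and Yaa is a copy of an X-chromosome segment with Tlr7 on the Y chromosome.

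MHC class II genes are read together through a conserved promoter module that ends in the Y box, an inverted CCAAT element, and need the coactivator Ciita. The promoter windows of this gene group, and that of the B cell receptor inhibitor Cd22, are shown because Cd22 and at least 9 of the 12 class II genes were called higher in both comparisons given further on. Windows of 300 bases, 250 before and 50 after the gene start (RefSeq, GRCm38.p6), were searched on both strands for the Y box letters CTGATTGG and for TCCC and GGGA with 2 bases between them, a palindromic form of the site of the B cell factor Ebf1. The motifs do not overlap in any window shown. The Y box was found in 4 of the 9 class II genes with a window (12 in the list) and in 4.1% of all 32851 windows. The Ebf1 form was found in 1 of 10 receptor complex genes with a window and in 0.904% of all windows. A match is a description of letters and not of binding. The Cd22 window is set at the RefSeq start. In GENCODE M21 that gene reaches to position 30880342, so the window lies inside it. Below are the 150 bases before the gene start, 5′ to 3′ on the gene's strand, with the match in capitals.
H2-Aa, chr17:34287824-34287973, minus strand, Y box 51 bases before the start: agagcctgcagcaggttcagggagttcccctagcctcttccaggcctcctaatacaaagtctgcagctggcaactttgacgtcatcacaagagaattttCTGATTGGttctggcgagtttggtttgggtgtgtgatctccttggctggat
H2-Eb1, chr17:34305717-34305866, plus strand, Y box 62 bases before the start: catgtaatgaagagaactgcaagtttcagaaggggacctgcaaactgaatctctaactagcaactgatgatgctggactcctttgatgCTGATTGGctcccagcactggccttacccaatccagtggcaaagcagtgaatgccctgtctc
H2-Eb2, chr17:34325525-34325674, plus strand, Y box 103 bases before the start: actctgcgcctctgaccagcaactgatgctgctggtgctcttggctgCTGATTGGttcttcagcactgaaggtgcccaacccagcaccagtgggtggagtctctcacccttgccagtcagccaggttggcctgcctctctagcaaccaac
H2-Oa, chr17:34092229-34092378, plus strand, Y box 46 bases before the start: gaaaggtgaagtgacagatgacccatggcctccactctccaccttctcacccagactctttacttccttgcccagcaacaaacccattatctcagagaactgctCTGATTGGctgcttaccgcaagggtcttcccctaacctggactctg
Cd22, chr7:30879029-30879178, minus strand, Ebf1 form 49 bases before the start: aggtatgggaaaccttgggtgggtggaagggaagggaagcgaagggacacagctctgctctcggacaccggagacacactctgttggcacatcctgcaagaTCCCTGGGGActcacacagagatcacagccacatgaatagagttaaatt

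The share of mature B cells differed widely between stretches. Stretch 8, the smallest, held 52 mature B cells, 11.6% of its cells (8.81 to 14.97), and stretch 1 held 116, 5.31% (4.41 to 6.34). Stretches 2 to 5 held 53 to 69 each, 1.32% to 2.41%. Stretch 6, the largest, held 51, 0.751% (0.560 to 0.987), and stretch 7 held only 9, 0.516%. Without stretch 8 the pooled share was 1.69%, without stretch 1 it was 1.53%, and without stretch 6 it was 2.28%. Depth differed too: a mature B cell had 864 to 21605 UMIs with a median of 5121 and 1671 genes, and stretch medians ran from 1936 in stretch 6 to 8892 in stretch 8. The part of depth in these shares was not tested.

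**Figure D1:**
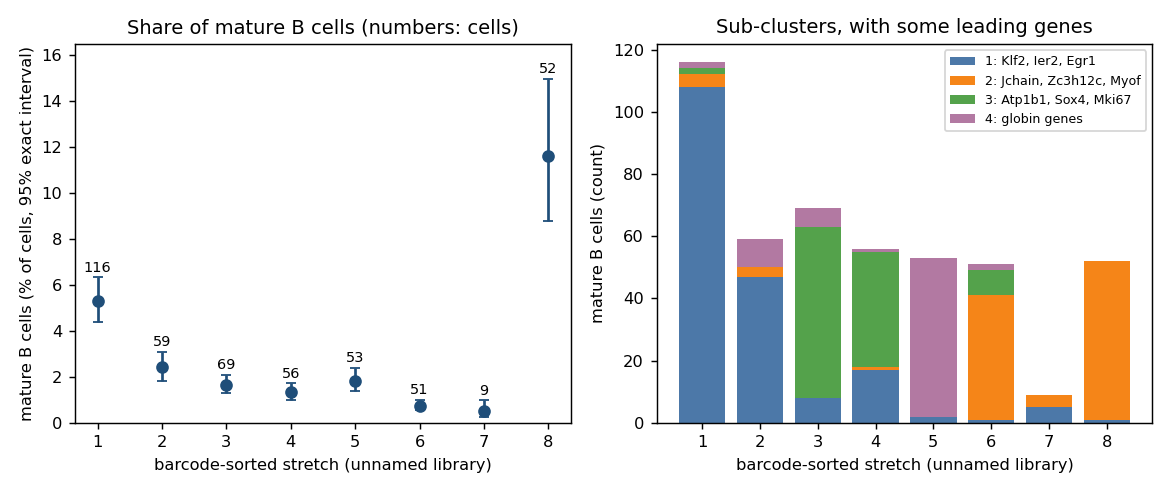
Left, mature B cells as a percentage of all cells of each barcode-sorted stretch, with 95% exact binomial intervals and the number of cells above each point. Right, the number of mature B cells of each stretch in the 4 sub-clusters. Stretch 8 stands highest at 11.6%, and in each of the 7 stretches with over 20 mature B cells 1 sub-cluster holds at least 37 of them.

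The B lineage part of the label was checked with B cell genes that the rule did not use, set against 753 T cells of the same table. These had at least 3 of 5 T receptor genes and no Cd79a or Ms4a1. As cells with RNA of either gene were left out, the T cells may understate how much B cell RNA lies free in these libraries. Cd79b, the second signalling chain (chromosome 11, positions 106311341 to 106314762, mm10), was at 1087 CPM (1047 to 1128) with stretches at 399.8, 1179 and 1726, against 7.75 CPM in T cells. Its lowest value was that of stretch 8. A Cd79b UMI was present in 95.5% of mature B cells and 3.98% of T cells at median depths of 5121 and 5299 UMIs. At 2000 UMIs a cell, after leaving out 38 and 58 shallower cells, these shares were 83.8% and 1.87%. Cd79b was thus present in every stretch. It was also present in 95.3% of pro-B and pre-B cells and 94.8% of plasma cells, 2 classes compared further on. At 2000 UMIs a cell these shares were 79.0% and 37.5%. Cd79b thus speaks to B lineage, and its presence alone does not show the stage. RNA of T and NK cells was near 0, while red cell and neutrophil RNA was present and is given with the RNA of other cells. The 16 genes of the T and NK cell list summed to 60.7 CPM against 8767 in T cells, with Thy1 and Ncr1 at 0.

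Cells at the edge of the rule were looked at without a test. Only 4 members had exactly 2 Cd79a UMIs and 6 cells were outside with 1. The Ms4a1 limit mattered more: 69 members had 1 UMI and 105 cells with 0 were outside, and Cd79b was at 1051 and 1106 CPM in the groups inside and outside. At Ighd and H2-Aa together, 14 members had 2 UMIs and 21 cells had 1, and the latter had Ighm at 8529 CPM against 2759 over all members. On the Mzb1 side, 67 members had 4 or 5 UMIs and 38 cells had 6 to 10, with Jchain, the joining chain of secreted antibody, at 450 CPM inside and 4508 CPM outside. The rule thus borders on cells with more plasma cell RNA at 1 edge and on cells with more Ighm at the other.

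**Figure D2:**
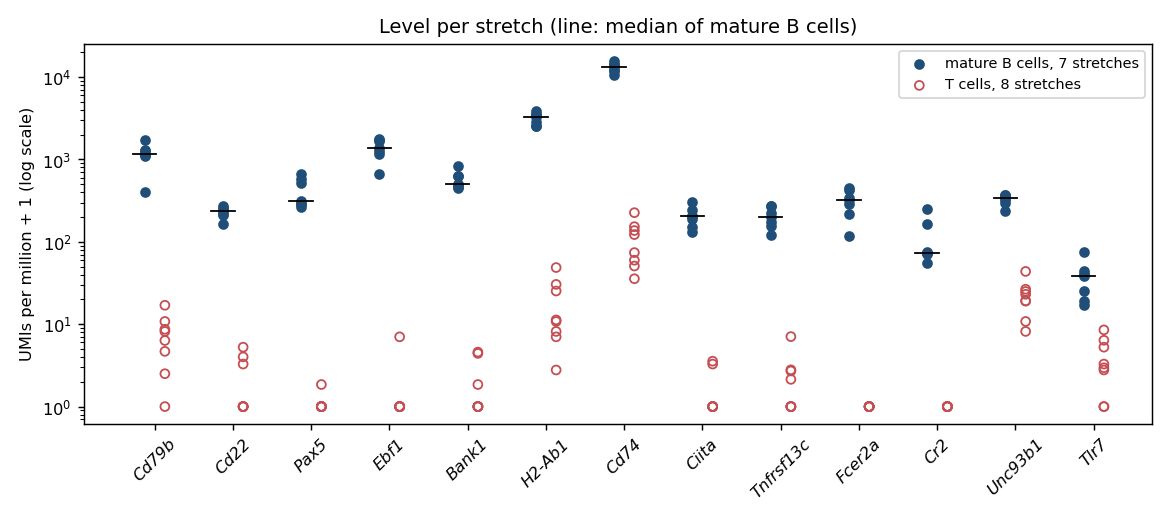
Levels of 13 B cell genes that the rule did not use, in CPM plus 1 on a log scale, in the mature B cells of 7 stretches (filled) and the T cells of 8 stretches (open). Every gene is higher in every mature B stretch than in any T cell stretch, from Cd74 at 10710 to 15590 CPM down to Tlr7 at 15.9 to 74.8 CPM.

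Of the 15 listed genes of the B cell receptor and its co-receptors, 13 were at 20 CPM or more. Ighm, the heavy chain of IgM, was at 2759 CPM (2696 to 2824) with stretches at 1887, 2134 and 5714. The 2 highest were stretch 4 and stretch 3 at 4258, and the other 5 lay at 1887 to 3154. Ighd, the IgD heavy chain and part of the rule, was at 810 CPM with stretches at 340, 918 and 1036, lowest in stretches 6 and 8. The IgM and IgD levels thus did not follow the same order over stretches. Cr2, the complement receptor that lowers the threshold of the B cell receptor, was at 114.7 CPM (102.1 to 128.6), with stretches at 54.9, 72.3 and 248 and the highest value in stretch 8. It was at 0 in T cells, pro-B and pre-B cells and plasma cells. Among the inhibitors that restrain the receptor, Cd22 was at 224.9 CPM (207.0 to 243.9) with stretches at 164.6, 235.8 and 272.5, and the Fc receptor Fcgr2b at 61.8 CPM with stretches at 41.4, 55.3 and 95.4. Cd5, the inhibitor that marks B-1a cells, had 1 UMI in all.

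The kinases and adaptors that carry the receptor signal were all detected, with all 20 genes of the list at 20 CPM or more. Syk, the kinase recruited by Cd79a and Cd79b, was at 342.7 CPM with stretches at 242.2, 320.8 and 560.7. Lyn, which starts and also restrains the signal, was at 182.0 CPM, Blk at 128.7, Btk at 57.6 and the phospholipase Plcg2 at 100.5. Bank1, a scaffold linked to lupus risk in people, was at 583.4 CPM (554.3 to 613.6) with stretches at 455.7, 509.4 and 821.5, against 1.26 CPM in T cells. The transcription factors that hold B cell identity were expressed in each stretch. Pax5 was at 369.4 CPM with stretches at 267.2, 310.9 and 667.3, and Ebf1 at 1432 CPM with stretches at 672.7, 1382 and 1789. Both were below 1 CPM in T cells. Prdm1, which drives plasma cell fate, had 49 UMIs, of which 25 were in 1 cell.

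MHC class II genes summed to 26260 CPM over the list of 12, with stretches from 20810 to 30410, against 335.2 CPM in T cells. H2-Ab1, a chain of the presenting molecule, was at 3357 CPM (3286 to 3428) with stretches at 2568, 3259 and 3899. H2-Eb1 was at 3239 CPM with stretches at 2054, 3310 and 3687, and Cd74, the invariant chain that guards the groove, at 13460 CPM with stretches at 10710, 13350 and 15590. No stretch stood far from the rest for these 3 genes, the highest being less than 2 times the lowest. Ciita, the coactivator that acts on the module printed above, was at 196.7 CPM with stretches at 130.4, 202.5 and 303.5. The exchange factors H2-DMa and H2-DMb2 were at 494.9 and 491.8 CPM and the B cell modulators H2-Oa and H2-Ob at 295.9 and 379.8. H2-Aa belongs to this group and was used by the rule, so the level of the group is not independent of how cells were chosen.

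Receptors for survival signals, T cell help and homing were expressed as well. Tnfrsf13c, the BAFF receptor, was at 185.5 CPM (169.2 to 202.8) with stretches at 119.7, 200.8 and 274.9. Tnfrsf13b (TACI) was at 95.8 CPM, and Tnfrsf17 (BCMA), the receptor of plasma cells, had 0 UMIs against 88.2 CPM in plasma cells. Cd40, which receives help from T cells, was at 53.7 CPM, and its partner signals Cd86 and Icosl were at 134.5 and 63.4 CPM. Cd80 had 10 UMIs. Of the homing receptors, Ccr7 was at 440.8 CPM with stretches at 290.0, 431.7 and 607.0, Cxcr5, which leads to follicles, at 73.4 CPM, and S1pr1, the exit receptor, at 129.8 CPM. Fcer2a (CD23), a marker of follicular cells, was at 325.7 CPM (304.1 to 348.4) and 0 in T cells. Its stretches lay at 115.4, 318.7 and 443.7, and stretch 8 was lowest.

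Receptors of nucleic acids gave few UMIs. Tlr7, which senses RNA and lies in the Yaa segment, was at 34.4 CPM (27.6 to 42.3), with 89 UMIs in 66 cells, against 3.56 CPM in T cells. Its stretches lay at 15.9, 37.6 and 74.8, the highest in stretch 8 and the next at 43.4 in stretch 6. A Tlr7 UMI was seen in 14.2% of mature B cells, 2.12% of T cells and 8.86% of the deeper neutrophils (median 12204 UMIs). At 2000 UMIs a cell these shares were 5.86%, 0.719% and 1.96%. Tlr9, which senses DNA, had 9 UMIs in 9 cells. Mouse Tlr8 had 0 UMIs, which allows up to 1.16 CPM at 3 UMIs, and the human transgene was not analysed here. Unc93b1, the chaperone that brings these receptors to endosomes, was at 329.2 CPM (307.4 to 352.0) with stretches at 236.9, 335.3 and 367.2, against 22.0 CPM in T cells.

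Genes of the Sle1 locus and of the interferon response were detected in part. Of the SLAM receptors, Slamf6 was at 203.6 CPM with stretches at 128.3, 195.2 and 280.4, Cd84 at 114.0, Cd48 at 59.9, Slamf1 at 48.7 and Ly9 at 44.0, while Cd244 had 3 UMIs. Slamf6 and Fcgr2b were above T cells (71.4 and 1.88 CPM), and Cd84, Cd48, Slamf1 and Ly9 were below them pooled. The 35 measured interferon response genes summed to 3233 CPM (stretches 2499 to 4181), against 4400 CPM in T cells. Isg15, a ubiquitin-like product of that response, was at 43.3 CPM with stretches at 8.67, 27.0 and 303.8. The value of stretch 6 stood far above the rest, and 36 of the 112 Isg15 UMIs came from 1 cell. Of the 112, 54 were in sub-cluster 4, given further on, which was led by red cell genes. Sub-clusters 1, 2 and 3 held 17, 36 and 5. The part of RNA of other cells in the Isg15 level was not tested.

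The first comparison set mature B cells against the nearest earlier stage in the table, 128 pro-B and pre-B cells (at least 2 Cd79a UMIs, at least 2 of Vpreb1 and Igll1 together, no Siglech). Most genes of the MHC class II, follicular and homing lists were higher in mature B cells, and most of the division and B cell development lists were lower, with the counts below. Ratios on the log2 scale had 10 CPM added above and below the line, covered genes that reached 20 CPM in 1 class or the other, and were shifted so that the median gene stood at 0. A gene is called higher or lower when it was 2-fold apart pooled and had the same sign in each of the 4 stretches with at least 20 cells of both classes. Of 6319 genes, 698 were higher in mature B cells (11.0%) and 545 lower (8.62%), so 56.2% of called genes were higher. Without centring, which moves the median gene to -0.35, 443 were higher and 992 lower and the share was 30.9%. With no minimum level it was 39.0%. Genes that chose either class are among those counted, and these counts describe size and carry no p.

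All 12 measured MHC class II genes were higher than in pro-B and pre-B cells, beside the 11.0% over all genes. Their median centred log2 difference was 3.83, with stretch medians from 3.55 to 3.98. H2-Eb1 stood at 3239 against 37.2 CPM, a centred log2 difference of 6.46 (4.57 to 6.57 over stretches), and Cd74 at 13460 against 227.2 CPM, a difference of 6.18. H2-DMb2 was at 491.8 against 4.96 CPM and Ciita at 196.7 against 10.7 CPM. Ctsh, a cathepsin of the same compartments, was at 279.7 against 5.79 CPM. The presentation machinery as listed was therefore higher throughout, and 1 of its 12 genes, H2-Aa, had been used to choose cells. Pro-B and pre-B cells were chosen without any demand on H2-Aa or Ighd. As class II genes are read together, the rest of the list is not independent of that choice either.

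All 12 genes of the follicular list were higher too, beside 11.0% over all genes, with a median of 2.98 (stretches 2.73 to 3.58). Of the 12, 1, Ighd, had been used to choose cells. Fcer2a had 843 UMIs against 0, at least 131-fold higher when the floor of 3 UMIs over the class is used, and Fcmr, the receptor for IgM, was at 571.0 against 2.48 CPM. Cd83, an activation and maturation marker that steadies class II at the surface, had 1007 UMIs against 0, at least 157-fold higher. Gpr183, which guides B cells to the edge of follicles, had 525 against 0, at least 81.8-fold higher, and Cr2 had 297 against 0, at least 46.3-fold higher. Of the 14 measured homing genes 10 were higher and 0 lower, with Ccr7, which brings cells into lymph nodes, at 440.8 against 43.8 CPM. Cxcr4, which holds cells in marrow, was at 229.1 against 158.7 CPM and did not pass, as Itga4 did not.

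The counts of this paragraph stand beside 11.0% higher and 8.62% lower over all genes. In the receptor complex, 6 of 13 measured genes were higher and 0 lower, and 2 of the 6, Cd79a and Ighd, had been used to choose cells. In its signalling list 10 of 20 were higher and 0 lower. Bank1 (5.19) and Malt1 (3.19), which carries the signal to NF-kB, led the centred differences in the signalling list. Cd22 was at 224.9 against 26.4 CPM. Igkc, the kappa light chain, was higher at 10010 against 722.2 CPM, while Cd79b at 1087 against 796.6 CPM and Ighm at 2759 against 2835 did not pass. Of 20 transcription factors 9 were higher and 1 lower. Pou2f2 (Oct-2), Ikzf3 (Aiolos) and Rel were higher by 2.81, 2.45 and 2.11 on the centred log2 scale, and Tcf3 (E2A), which drives early B cell development, was lower at 90.8 against 376.8 CPM. Pax5 and Ebf1 were at 369.4 and 1432 CPM against 402.4 and 2455 and did not pass.

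Survival genes leaned to mature B cells, with 6 of 10 measured higher and 0 lower. Bcl2, which protects mitochondria, was at 111.7 against 13.2 CPM, and Tnfrsf13c at 185.5 against 62.0. Of 11 measured nucleic acid receptor genes 4 were higher, a share to be read beside the 11.0% over all genes: Tlr7 at 34.4 against 1.65 CPM, and Slc15a4, Irak1 and Irf5. Unc93b1 at 329.2 against 242.1 CPM did not pass. Of 19 measured interferon response genes 4 were higher, Ly6a, Samhd1, Phf11b and Ifi213, and 0 lower. Isg15 at 43.3 against 29.8 CPM did not pass.

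All 24 genes of division were lower in mature B cells, beside 8.62% over all genes, with a median of -2.54 (stretches -3.05 to -1.90). Mki67, a marker of cycling cells, was at 62.6 against 933 CPM, and Stmn1, which controls microtubules, at 56.4 against 1386. Of the 18 measured development genes 15 were lower, a count partly fixed by the rule, which removes Vpreb1 and Igll1. Dntt, which adds bases at receptor joints, had 3 UMIs against 867, Lef1 was at 5.41 against 321.5 CPM and Il7r, the receptor for interleukin 7, at 2.32 against 197.5. Vpreb2, a part of the surrogate light chain, had 0 against 262 UMIs, at least 187-fold lower. The 2 development genes that were higher were Ptprc and Bcl2. The differences of Dntt and of Cplx2, a complexin of vesicle release, ranged widely over stretches, from -6.32 to -0.38 and from -4.04 to -0.23.

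**Figure D3:**
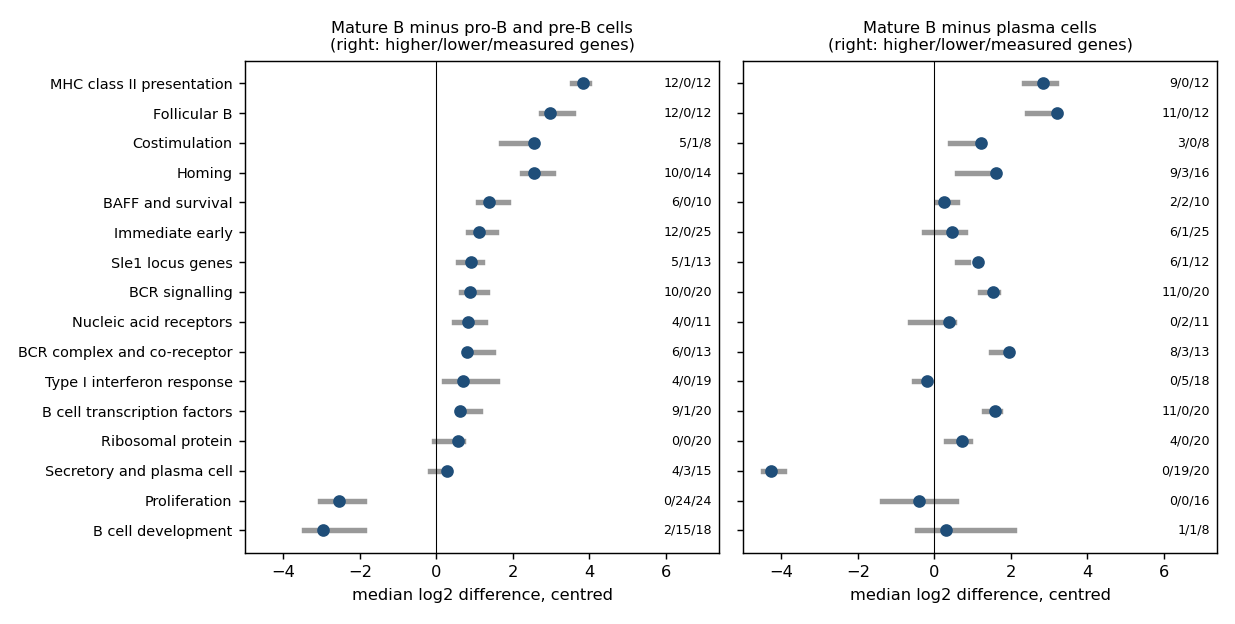
Median centred log2 difference of each gene list between mature B cells and pro-B and pre-B cells (left) or plasma cells (right). Points are pooled cells, grey bars run over the stretches compared, and numbers give genes higher, lower and measured. MHC class II leads on the left at 3.83 and the follicular list on the right at 3.20, and the secretory list lies lowest on the right at -4.28.

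The second comparison set them against the nearest later stage, 271 plasma cells (at least 6 Mzb1, 10 Jchain and 1 Xbp1 UMIs, no Siglech), over stretches 3, 4, 6 and 8. Mature B cells had more identity factor, class II and homing RNA and less RNA of the secretory machinery. Of 5195 genes, 440 were higher (8.47%) and 642 lower (12.4%), so 40.7% of called genes were higher. The share depended on scaling: without centring, which moves the median gene to 1.01, 2553 were higher and 210 lower, a share of 92.4%, and with no minimum level it was 82.7%. Igkc alone took 371700 CPM of plasma cells against 10010 in mature B cells. Directions below are relative to the median gene.

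Ebf1 and Pax5, which hold B cell identity, were among the 10 genes named as furthest apart upward. Ebf1 was at 1432 against 9.01 CPM, a centred log2 difference of 5.23 (4.28 to 6.30), and Pax5 at 369.4 against 0.277 CPM, a difference of 4.20 (3.81 to 4.92). In all 11 of 20 transcription factors were higher and 0 lower, beside 8.47% and 12.4% over all genes. Among the 11 were Bach2 (3.12), which holds back plasma cell fate, Bcl11a (3.31) and Spib (2.69). Irf4, which acts at both stages, was at 143.7 against 92.1 CPM and did not pass. Klf2 at 5190 against 738.9 CPM was far apart pooled but did not have the same sign in every stretch compared.

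Of the MHC class II list 9 of 12 were higher and 0 lower, beside 8.47% and 12.4% over all genes, with a median of 2.84 (2.34 to 3.18). H2-Aa of the rule is among the 9. H2-DMb2 was at 491.8 against 4.58 CPM, H2-Oa at 295.9 against 0.693 and Ciita at 196.7 against 0.971, while Cd74 at 13460 against 3581 CPM, H2-Eb2 and Ctss did not pass. Of the follicular list 11 of 12 were higher, the exception being Klf2, with a median of 3.20 (2.43 to 3.27), and the 11 include Ighd of the rule. Ccr7 at 440.8 against 1.25 CPM and Fcer2a at 325.7 against 0.277 were among the receptors. Cd72, an inhibitor of the B cell receptor, was at 301.0 against 1.80 CPM, and Ly86, the partner of the Toll-like receptor Cd180, at 334.2 against 3.74. The homing list also held 3 genes that were lower, Ccr10 and Cxcr3, which lead plasma cells to tissues, and Itgal.

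The secretory list was lower in 19 of 20, the exception being Irf4, beside 12.4% over all genes. Its median was -4.28 (-4.49 to -3.94), or -4.2 with Tnfrsf17 at its bound. Jchain, Mzb1 and Xbp1 had chosen the plasma cells and are no finding. Among the others, Hsp90b1, an endoplasmic reticulum chaperone that also folds Toll-like receptors, was at 306.8 against 4190 CPM and Sdc1 (CD138), the classic plasma cell surface marker, had 6 UMIs against 1105. Creld2 and Derl3, which handle folding and degradation in the endoplasmic reticulum, were at 21.6 and 6.95 CPM against 585.8 and 263.0. Tnfrsf17 had 0 UMIs against 636, at least 76.1-fold lower. Slpi, a protease inhibitor, was furthest apart at 13.1 against 5528 CPM. Prg2, Tmem176a, Tmem176b, Eaf2 and Ly6c2 completed the 10 lowest, at 4.64 to 69.2 CPM against 258.9 to 1031.

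Lists tied to lupus were mixed against plasma cells, beside 8.47% higher and 12.4% lower over all genes. Of 11 measured nucleic acid receptor genes 0 were higher and 2 lower, Hsp90b1 and Tmem173 (STING), the latter at -1.05 centred, close in size to the shift of the median gene. Tlr7 at 34.4 against 6.79 CPM did not pass. Of 18 interferon response genes 0 were higher and 5 lower, Ifitm3, Bst2, Ly6a, Zbp1 and Cxcl10, with a median of -0.20 centred and 0.81 not centred. Of the Sle1 list 6 of 12 measured were higher, Cr2, Cd84, Slamf6, Fcgr2b, Ifi203 and Mndal, and Slamf7, a SLAM receptor of plasma cells, was lower.

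Light chain RNA was looked at in the 456 mature B cells with at least 10 UMIs of Igkc, Iglc1, Iglc2 and Iglc3. A B cell usually makes its antibody with either a kappa or a lambda light chain. Here 101 cells had at least 90% kappa UMIs, 17 had at least 90% lambda UMIs, and 338 (74.1%) had neither. Of the 118 assigned cells 85.6% were kappa (77.9 to 91.4), a share that depends on the limit of 90%. Kappa UMIs outnumbered lambda UMIs in 418 of the 456 cells. Where 75% of 1 kind sufficed, 345 cells were assigned and 93.3% of them were kappa. The median cell had 18.0% lambda UMIs (quartiles 10.9 and 27.6), and stretch medians ran from 11.7% to 22.2%, so intermediate cells were the rule in each stretch. Plasma cells gave 3 cells of 271 with neither (1.11%), 259 kappa and 9 lambda. Pro-B and pre-B cells gave 1 of 35.

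RNA in T cells gives a measure beside this, which may be low since T cells were chosen without Cd79a and Ms4a1. Igkc was found in 50.7% of T cells, but an Iglc2 UMI in 1.99% of T cells and in 90.8% of mature B cells. At 2000 UMIs a cell the Iglc2 shares were 0.863% in T cells, 0% in pro-B and pre-B cells and 77.0% in mature B cells. Plasma cells had the highest share, 87.6%, so Iglc2 RNA beside kappa was not particular to mature B cells. The median plasma cell had 52 Iglc2 UMIs beside 8679 of Igkc. In CPM, T cells had Igkc at 175.4 and Iglc2 at 4.19, and mature B cells had them at 10010 and 1082. The Igkc level is swayed by 1 cell that held 6760 of 25911 UMIs, while no cell held more than 51 of the 2801 Iglc2 UMIs. The lambda constant genes lie on chromosome 16. Iglc2 and Iglc3 are near-identical copies, and the split of reads between them is uncertain.

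**Figure D4:**
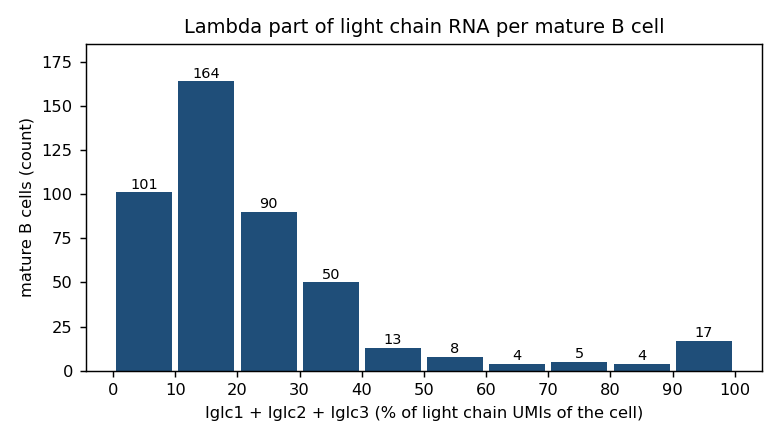
Number of mature B cells by the percentage of lambda (Iglc1, Iglc2 and Iglc3) among their light chain UMIs, for cells with at least 10 such UMIs. The fullest bin is 10 to 20% lambda with 164 cells, and the bin of 90% or more holds 17.

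Nearly all cells expressed unswitched heavy chains. Switched RNA, at least 5 UMIs of Ighg1, Ighg2b, Ighg2c, Ighg3, Igha and Ighe together and more than IgM and IgD, marked 7 cells, 1.51% (0.607 to 3.08), which is partly set by the use of Ighd in the rule. Of these, 5 were in stretch 8, and without that stretch the share was 0.484%. The switched cells held 5 to 1388 such UMIs with a median of 16, and Ighg2b had the highest count in 6 of them, ties included. A single cell held 1012 of the 1136 Ighg2b UMIs. Ighg2b was seen in 11.6% of mature B cells and 9.30% of T cells, so that low counts of it lie near the background.

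Mature B cells were divided by clustering into 4 sub-clusters, which followed the stretches so closely that they are called by number and leading genes only. Sub-cluster 1, with 189 cells, was led by Ankrd37, Klf2, Ier2, Wfdc17, Atf3 and Egr1 and had 108 cells in stretch 1 and 47 in stretch 2. Sub-cluster 2, with 103 cells, was led by Jchain, Il1b, Zc3h12c, Myof, Ccl3 and Cd44, and had 51 cells in stretch 8 and 40 in stretch 6. Single cells lead some of these genes, with 83 of 90 Il1b and 229 of 310 Jchain UMIs in 1 cell each. Sub-cluster 3, with 102 cells, was led by Atp1b1, Cenpf, Sox4, Fam129c and Mki67, with 55 cells in stretch 3, 37 in stretch 4 and 8 in stretch 6. Sub-cluster 4, with 71 cells, was led by Hba-a1, Hbb-bs and other red cell genes, and 51 of its cells were in stretch 5. The red cell genes rest on few cells, since 6 cells held 80.6% of all globin UMIs in mature B cells, and the red cell list was lower in stretch 5 (11620 CPM) than in stretches 3 and 6 (51340 and 71960 CPM).

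Stretch 4 held 2 sub-clusters side by side, which allows a look within a single stretch. Its 37 cells of sub-cluster 3 had Vpreb3, a chaperone of immature receptors, at 888 CPM and Sox4, a factor of early stages, at 216, against 108.2 and 0 in the 17 cells of sub-cluster 1. Cd93, a marker of transitional cells newly formed in marrow, had 10 UMIs against 0, and Ighm was at 6750 against 3897 CPM. Fcer2a went the other way, at 186 against 568.3 CPM, and H2-Aa and Ighd, which the rule used, were at 2418 and 768 against 4019 and 1258. As the sub-clusters were drawn from the RNA of these same cells, this describes them and tests nothing. Over the stretches Vpreb3 lay at 502.9 and 616.0 CPM in stretches 3 and 4, at 332.8 in stretch 6 and at 68.4 to 135.2 in the other 4. Sox4 had the same 3 stretches highest, at 101.2, 142.2 and 86.8 CPM, with the others at 0 to 3. In T cells Vpreb3 did not exceed 4.52 CPM in any stretch. Cells with at least 5 UMIs of mitosis genes numbered 12, of which 6 were in sub-cluster 3, and 36 of the 89 Cenpf UMIs were in 1 cell.

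Stretch 8 stood apart in genes of the marginal zone list, which summed to 2512 CPM there and to 888 to 1253 in the other 6. Over all members the list summed to 1303 CPM, of which Plac8 made up 587.6 and Mzb1 274.3. The rule limits Mzb1, so this sum is not independent of how cells were chosen. The genes named next make up only part of the sum in stretch 8. Cr2 was at 248 CPM with a UMI in 36 of 52 cells, S1pr3, a receptor of marginal zone cells, at 66.3 CPM in 13 cells, and Myof, a membrane repair gene, at 89.8 in 18 cells. Elsewhere S1pr3 had 1 UMI in all and Myof 8. Dtx1, a target of Notch signalling, was at 177.4 CPM against 18.0 to 72.3, and was also higher in the T cells of stretch 8, at 100 against 7.13 to 25.1. Fcer2a and Ighd were low in the same cells, at 115.4 and 365.6 CPM. Mature B cells of stretch 8 were the deepest, at a median of 8892 UMIs, and its tissue and genotype are unknown.

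Immediate early genes, the first genes read after a stimulus, varied with the stretch in B and T cells alike. Fos, a subunit of AP-1, was at 1579, 2126, 1124, 1844 and 2652 CPM in stretches 1 to 5 and at 260.4 and 100.5 in stretches 6 and 8. T cells of the same stretches had Fos at 1142, 1527, 872.4, 1686 and 1604 and at 206.2 and 62.8 CPM. Both classes thus had the lowest values in the same stretches. Klf2, which keeps lymphocytes quiescent and circulating, was at 4048 to 8779 CPM in stretches 1 to 5 and at 1201 and 1187 in stretches 6 and 8. T cells had 857.6 to 1973 and then 327.8 and 1075. Klf2 was thus low in both classes in stretch 6, but in stretch 8 the T cell value lay within the range of stretches 1 to 5. Hspa1a, a heat shock gene, was highest in stretch 5 in both, at 1794 and 692.5 CPM. Whether handling of the cells had a part in these differences was not tested.

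**Figure D5:**
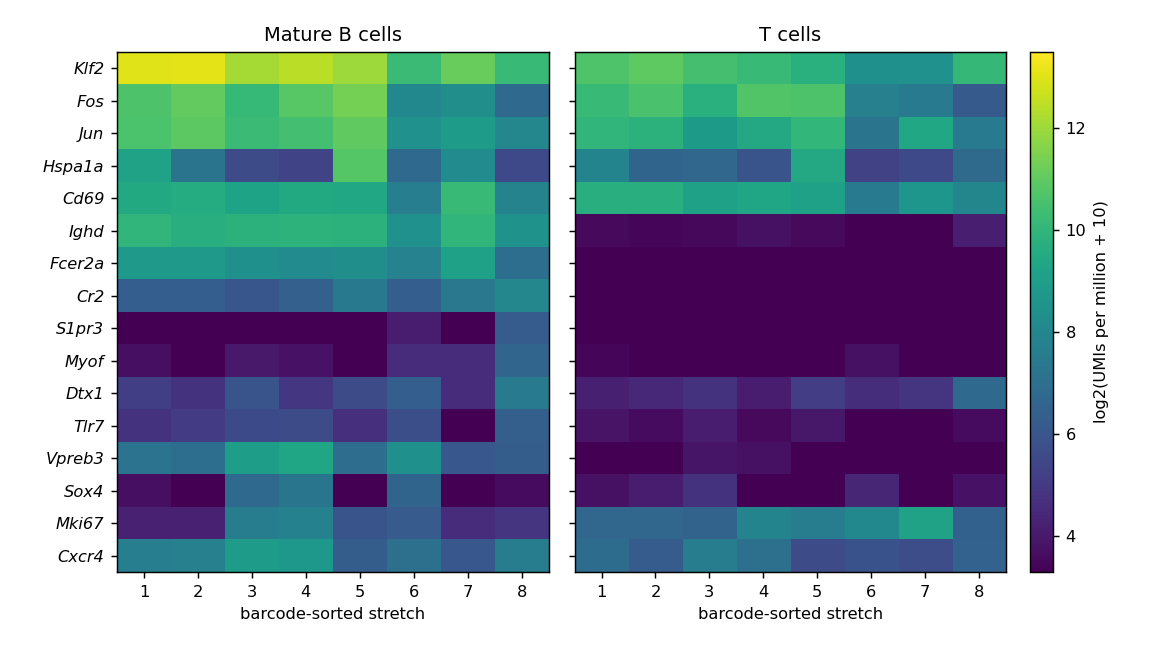
Levels of 16 genes, log2 of CPM plus 10, in the mature B cells (left) and T cells (right) of each barcode-sorted stretch. Fos, Jun and Klf2 are low in stretches 6 and 8 in mature B cells, and Cr2, S1pr3, Myof and Dtx1 are highest in stretch 8, where mature B cells had Cr2 at 248 CPM; stretch 7 holds only 9 mature B cells.

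RNA of other cells was present in the members. Globin made up a median 0.219% of a member's UMIs, but 6 cells were over 5% and these held 80.6% of all globin UMIs in mature B cells, as given with sub-cluster 4. The neutrophil list summed to 1781 CPM, from 96.2 in stretch 8 to 4249 in stretch 4, and in T cells to 78.5 and 17840 in those same stretches. Cxcr2 was at 0. In monocyte and macrophage genes, stretch 6 was highest at 1165 CPM. A single member had at least 3 UMIs of T receptor genes, and 2 had at least 3 of the macrophage complement genes C1qa, C1qb and C1qc. Of the 465 members, 259 were left when any with at least 3 UMIs of T and NK, neutrophil and Jchain RNA together was removed. S100a8, S100a9, red cell and macrophage RNA did not count in that removal. The part of RNA of other cells in the results was not tested except by that removal and, for list levels, by leaving out members over 5% globin.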

How the data were processed

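The authors deposited 1 table of raw, unnormalised UMI counts for all libraries together. Cell Ranger 5.0.0, Seurat 3.1.5 and the genome mm10 are named in the submitters' processing notes, and no source used here gives the authors' filters on cells. In all, 19669 genes, 24942 cells and 248384567 UMIs were present. Members and gene lists were chosen with earlier results of these data known. The use of barcode stretches and the rules for T cells and neutrophils (at least 50 UMIs of S100a8 and S100a9, no Cd79a or Ms4a1) were chosen after the data were seen.

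Sums of UMIs per class gave CPM, with exact 95% intervals (Python 3.11.15, scipy 1.17.1, numpy 2.4.6, pandas 2.3.3). Shares were also taken after thinning cells to 2000 UMIs. Sub-clusters came from scanpy 1.11.5 and leidenalg 0.10.2 at resolution 0.5, on 500 variable genes without immunoglobulin segments, 15 components and 15 neighbours. No doublet caller was run and no cell was removed, and doublets may remain among the members. Genes named are the 10 highest and 10 lowest called genes of at least 50 CPM in each comparison, members of 29 fixed lists and leading sub-cluster genes. Genes used to choose classes, predicted genes and receptor segments are left out of the first part. Positions are from GENCODE M21, and 5 listed genes were not found under their symbols or synonyms (Tasl, Ifi202b, Ifi44l, Mx2, Gpr137b-ps). Alternatives covered membership, scaling, pseudocount, minimum level, light chain and switch limits, cluster resolution and each stretch left out. Those added after the data were seen left out sub-cluster 3, repeated barcodes or members over 5% globin. Some genes are not reported here.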

Additional observations from a re-analysis of the deposited data

How the results depend on the processing

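Of 162 alternative values, 145 stayed within the limit set for a changed value and 17 moved. Plain totals and no minimum level turned the balance of higher and lower calls in both comparisons. Under a stricter rule of at least 3 Cd79a, 2 Ms4a1 and 4 Ighd and H2-Aa UMIs, the share of mature B cells was 1.53% (381 cells). It was 2.18% (545 cells) with no limit on Mzb1. Without members over the limit for T and NK, neutrophil and Jchain RNA it was 1.04% (259 cells). Leaving out 1 stretch gave 1.53 to 2.28%. Against pro-B and pre-B cells, with 698 genes higher and 545 lower, plain totals gave 443 and 992, and no minimum level gave 556 and 871. Leaving out a stretch gave 674 to 751 higher and 544 to 588 lower. Against plasma cells, with 440 higher and 642 lower, plain totals gave 2553 higher and 210 lower, no minimum level gave 1736 and 362, and leaving out a stretch gave 434 to 464 and 611 to 695. The kappa share was 93.3% where 75% of 1 kind sufficed, and 83.3 to 87.1% without a stretch. The switched share of 1.51% was 2.58% (12 cells) at 2 UMIs or more and 0.430% at 20 or more. Without members over the limit for T and NK, neutrophil and Jchain RNA it was 0.772% (2 of 259 cells). Leaving out a stretch gave 0.484 to 2.01%, lowest without stretch 8. Sub-clusters numbered 8 at resolution 1. No paired analysis was possible because the columns carry no library or replicate number and no result comes from a test. Depth limits Tlr9 and Cd5, which had 9 and 1 UMIs in all members.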
